A study of Mus musculus with 32 samples.

Results

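The 43 genes described here serve DNA replication and cell division, out of 46517 genes in the table. They were chosen by name, with no measured value in the rule, but with earlier results of these data known. Of the 43 genes, 15 act in S phase, when DNA is copied, and 26 in mitosis or its preparation. Stmn1 and Hmgb2, which are made outside division too, are the other 2. All 43 were in the table and had at least 1 TPM in at least 4 libraries, the filter for testing.

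Bulk RNA sequencing gave the levels in Pmel T cells positive for CD8 and Thy1.1, whose transgenic T cell receptor recognises the melanocyte antigen gp100, from C57BL/6 mice 16 weeks old. The 32 libraries formed 8 groups of 4: the tumor-draining lymph node on day 12 (TDLN_D12), tumor (TIL), lymph node memory (Mem_LN), spleen, skin, lung, liver, and naive cells (from spleen). Every library, those of naive cells included, carries the disease label Melanoma-associated Vitiligo. The lymph node memory group was read as the draining node of the series' design, which places that node, skin, lung and liver 45 days after surgery. For tumor, spleen and naive cells the time, and for all groups the number of animals per sample and any pooling, were not given in the sources used here. Since the labels do not tie libraries to separate animals, p-values cover the spread among these libraries alone, which may be technical.

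A resting cell that enters division first loads the MCM helicase onto replication origins, then makes nucleotides and copies its DNA, and later builds a spindle that parts the chromosomes. E2F factors switch on the genes of the first steps, and a later wave that involves B-Myb and FoxM1 switches on those of mitosis. Naive T cells rest outside the cycle, T cells that meet their antigen divide fast, and memory cells divide seldom.

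Values are TPM, a level per transcript length that sums to the same total in each library, listed below in the order of replicates 1 to 4. Changes are differences of log2(TPM + 1), with standard errors (SE) from limma fitted to all 8 groups, and genes were called at a Benjamini-Hochberg adjusted p under 0.05 over 19738 genes. Other errors are standard deviations (SD) over n = 4 libraries, and intervals are 95% confidence intervals of the fit. The log2(TPM + 1) scale understates changes of genes near 0. A TPM cannot separate fewer dividing cells from less RNA of a gene per cell, and without read counts the depth of each library is unknown.

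The 16 genes of a T cell identity list, such as the CD3 and CD8 chains, summed to 2214 to 14354 TPM per library. In 5 libraries the sum was under 0.5 of the median over all libraries, namely tumor replicate 4, skin replicate 4 and liver replicates 2, 3 and 4. Between 17321 and 34211 genes lay above 0 in 31 libraries, and 10732 in liver replicate 2, which listed 13 of the 43 genes at 0. Lung replicates 2 and 3 and spleen replicate 3 listed 3, 2 and 1 of them at 0. In log2 units the typical residual SD per gene was 0.30 in the day 12 node, 0.51 in tumor, 0.62 in Mem_LN cells, 0.89 in spleen, 0.85 in skin, 0.96 in lung, 1.33 in liver and 0.39 in naive cells.

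The day 12 lymph node had the highest group median of all 8 groups for 43 of 43 genes. Tumor came next for 41 of them, and skin came next for Pcna and Ccne2. The 26 mitosis genes together made up 4530 ± 233 TPM in the day 12 node, 1469 ± 308 in tumor, 424 ± 248 in Mem_LN cells, 326 ± 134 in spleen, 365 ± 120 in skin, 352 ± 207 in lung, 622 ± 453 in liver and 78.9 ± 9.97 in naive cells. The means of lymph node memory cells, spleen, skin, lung and liver lay between those of tumor and naive cells, and their ranges of ±1 SD overlapped. The 6 MCM helicase genes had another order, with 1306 ± 156 TPM in the day 12 node, 565 ± 69.7 in tumor, 288 ± 110 in Mem_LN cells, 197 ± 69.8 in spleen, 155 ± 65.2 in skin, 259 ± 146 in lung, 138 ± 114 in liver and 229 ± 9.64 in naive cells. For the helicase the naive mean lay inside the range of the means of lymph node memory cells, spleen, skin, lung and liver.

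**Figure D1:**
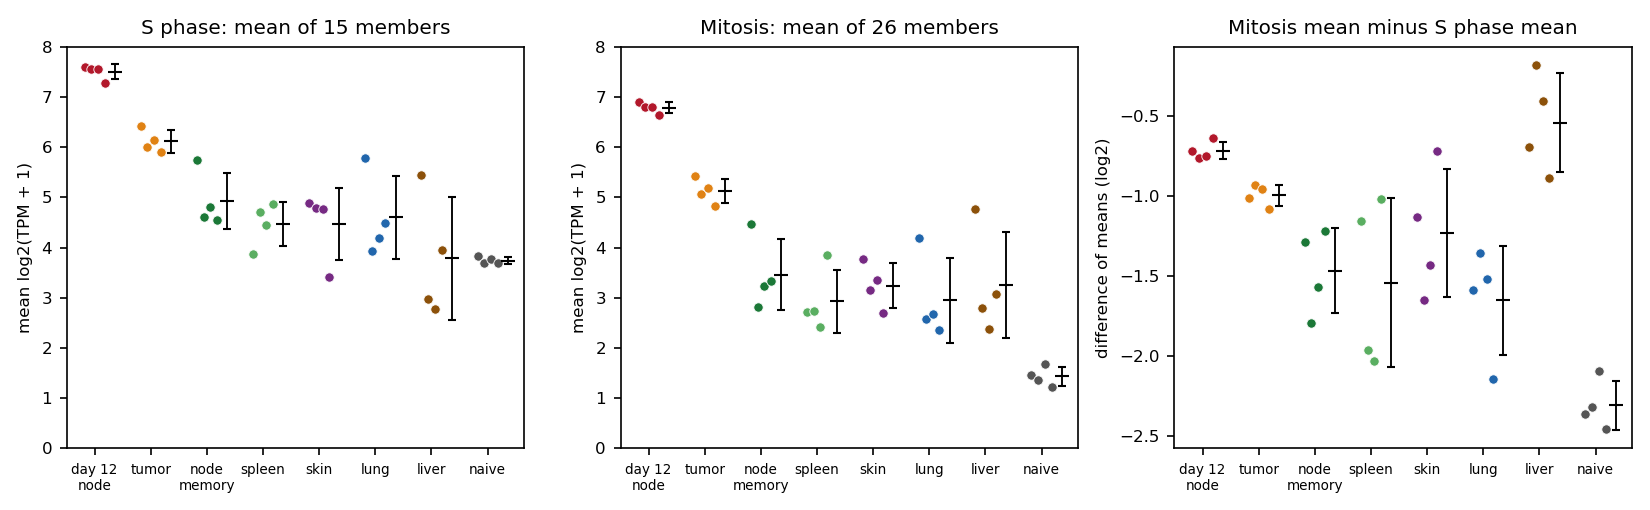
Mean log2(TPM + 1) of the 15 S phase genes and the 26 mitosis genes in each library, and the difference of the 2 means, for the 8 groups. Dots are libraries and black marks are the mean ± SD (n = 4). The mitosis mean was 6.79 ± 0.103 in the day 12 node and 1.43 ± 0.186 in naive cells, and the S phase mean was 7.5 ± 0.149 and 3.74 ± 0.069.

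The plot of class means per library also shows how the 2 classes stood to each other. The mean of the mitosis genes minus that of the S phase genes was -0.71 ± 0.055 log2 in the day 12 node, -0.99 ± 0.066 in tumor, -1.47 ± 0.266 in Mem_LN cells, -1.54 ± 0.531 in spleen, -1.23 ± 0.402 in skin, -1.65 ± 0.343 in lung, -0.54 ± 0.311 in liver and -2.31 ± 0.155 in naive cells. The difference was lowest in naive cells. The liver value includes 10 mitosis genes listed at 0 in replicate 2. These differences are given as a description, without a test.

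The comparison of day 12 lymph node with naive cells asks what Pmel cells switch on when they respond to the tumor. All 15 S phase genes, all 26 mitosis genes, Stmn1 and Hmgb2 rose, that is 43 of 43, where 5.95% of all tested genes were called higher. The median change was 5.22 log2 for the mitosis genes and 3.71 for the S phase genes, beside a median of -0.19 over all tested genes. For all 43 every day 12 library lay above every naive library, which held for 19.5% of tested genes.

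Ccnb2, a cyclin B partner of the mitotic kinase, had 409, 409.9, 416 and 367 TPM in the day 12 node and 1.75, 1.29, 1.85 and 0.64 TPM in naive cells. Its change of 7.43 (SE 0.73, limma adjusted p = 1.48e-08) was the largest of the 43. Ccnb1, the other cyclin B, had 246, 233, 242 and 184 TPM in the day 12 node and 1.51, 1.59, 2.73 and 1.09 TPM in naive cells. Cdk1, the kinase that both cyclins activate, had 289, 276, 288 and 267 TPM in the day 12 node, against 3.96, 3.74, 3.18 and 1.66 TPM in naive cells. These genes of the entry into mitosis were at 184 TPM or more in each day 12 library and at 3.96 TPM or less in each naive library.

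Birc5 encodes survivin, a subunit of the chromosomal passenger complex, and had 608, 611, 698 and 677 TPM in the day 12 node and 3.58, 3.19, 5.54 and 1.94 TPM in naive cells, a change of 7.21 (SE 0.59, limma adjusted p = 4.76e-10). Ube2c, the ubiquitin carrier that works with the anaphase-promoting complex, had 462, 424, 492 and 443 TPM in the day 12 node and 2.53, 1.73, 3.74 and 1.88 TPM in naive cells. Plk1, a kinase of spindle assembly and mitotic exit, had 149.99, 135, 149 and 116 TPM in the day 12 node and 1.63, 1.0, 0.81 and 1.12 TPM in naive cells. The groups were far apart for all 3, and the changes of Ube2c and Plk1 were 7.07 and 6.02 log2.

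Cdc20, the activator of the anaphase-promoting complex, had 224, 205, 216 and 180.1 TPM in the day 12 node and 7.04, 7.14, 7.78 and 7.06 TPM in naive cells. Its naive level was above that of Ccnb1, Cdk1, Plk1 and Ube2c in every naive library. Top2a, the topoisomerase that untangles replicated DNA, had 202, 198, 196 and 204 TPM in the day 12 node and 5.65, 4.49, 7.95 and 3.22 TPM in naive cells. Mki67, the gene of the Ki-67 antigen that coats mitotic chromosomes and serves as a marker of cycling cells, had 38.8, 33.7, 39.9 and 43.5 TPM in the day 12 node and 0.46, 0.24, 0.58 and 0.3 TPM in naive cells. Mki67 was under 1 TPM in all 4 naive libraries, and its change was 4.84 (SE 0.44, limma adjusted p = 3.2e-09). The smallest changes of the class were those of Foxm1, the factor named above, at 3.74, of Cenpa, the histone of centromeres, at 3.74, and of Ttk, a kinase of the spindle checkpoint, at 3.93.

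Among S phase genes Rrm2 and Tk1, which supply nucleotides, rose most. Rrm2, the regulated subunit of ribonucleotide reductase, had 753, 709, 631 and 589 TPM in the day 12 node and 5.59, 5.12, 7.62 and 5.71 TPM in naive cells, a change of 6.59 (SE 0.64, limma adjusted p = 1.13e-08). Tk1, the thymidine kinase of cycling cells, changed by 5.76 (SE 0.36). Cdc6, which loads the MCM helicase, had 61.7, 57.2, 57.9 and 43.7 TPM in the day 12 node and 0.88, 0.55, 1.0 and 0.76 TPM in naive cells, a change of 4.96 (SE 0.64). Ccne2, a cyclin E of the start of S phase, had 57.1, 58.3, 53.1 and 51.6 TPM in the day 12 node and 1.83, 1.52, 1.56 and 1.52 TPM in naive cells. Rrm2, Cdc6 and Ccne2 were under 8 TPM in every naive library.

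The helicase and the clamp rose least, and their levels in naive cells were 18.3 TPM or more in every library. Mcm2 had 136, 127, 132 and 92.7 TPM in the day 12 node and 27.0, 26.8, 25.8 and 24.4 TPM in naive cells, a change of 2.17 (SE 0.57, limma adjusted p = 0.00978). Mcm5, another helicase subunit, had 235, 232, 232 and 179 TPM in the day 12 node and 20.9, 18.3, 18.5 and 19.1 TPM in naive cells, with day 12 replicate 4 below the others. Pcna, the sliding clamp of the replicative polymerases, had 523, 574, 569.97 and 527 TPM in the day 12 node and 127, 117, 107 and 125 TPM in naive cells, a change of 2.20 (SE 0.41, limma adjusted p = 0.000263). The smallest changes were those of Mcm4, at 2.05 (SE 0.65, limma adjusted p = 0.0367), and Mcm7, at 2.07. As ratios of group medians, day 12 over naive was 5.46 at the median of the 6 MCM genes, 14.4 at the median of all 15 S phase genes and 81.4 at the median of the mitosis genes, with extremes of 4.39 for Mcm7 and 269 for Ccnb2.

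Stmn1 encodes stathmin, which destabilises microtubules, and had 1488, 1477, 1549 and 1612 TPM in the day 12 node and 44.2, 32.8, 42.9 and 35.0 TPM in naive cells, a change of 5.28 (SE 0.51). Hmgb2, a chromatin protein, had 1729, 1730.5, 1819 and 1922 TPM in the day 12 node and 85.3, 78.3, 79.9 and 86.9 TPM in naive cells, a change of 4.43 (SE 0.37). These were the most abundant of the 43 in every day 12 library.

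**Figure D2:**
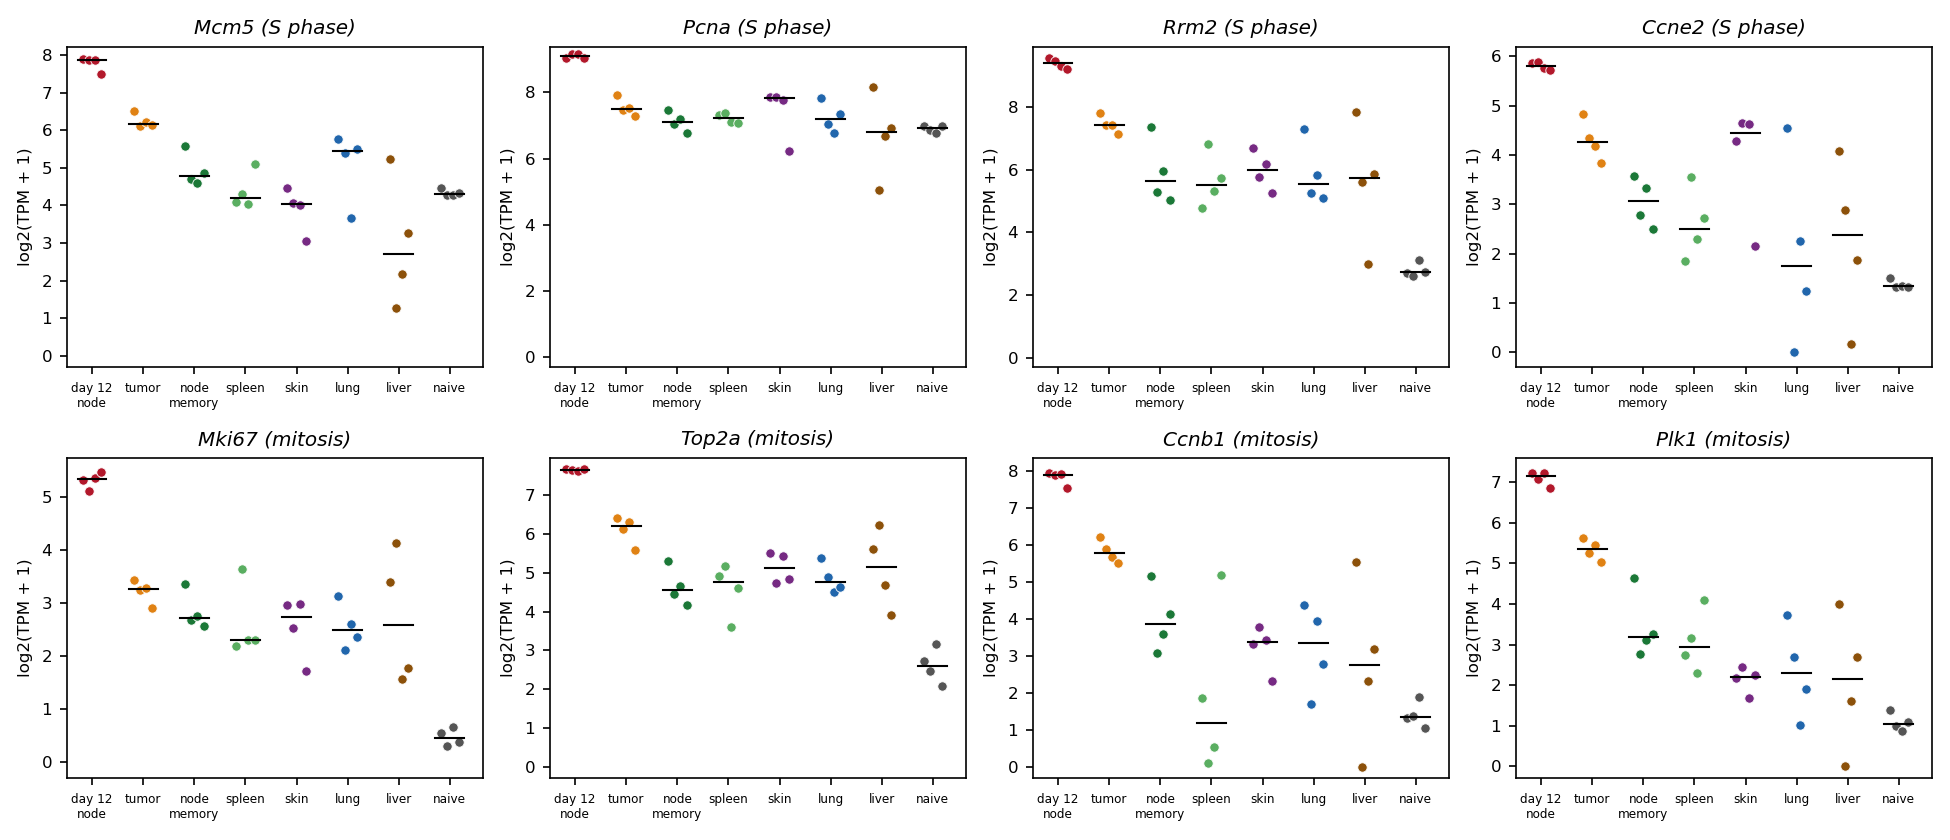
Levels of Mcm5, Pcna, Rrm2, Ccne2, Mki67, Top2a, Ccnb1 and Plk1 as log2(TPM + 1) in the 8 groups, with dots for libraries and a line for the group median. The 4 day 12 libraries lie above all other libraries in each panel, while Mcm5 and Pcna keep levels of 18.3 TPM or more in naive cells and Mki67 does not reach 1 TPM there.

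Promoters of 4 genes, Mcm5 and Rrm2 of the S phase class and Ccnb2 and Cdk1 of the mitosis class, are shown as examples because the 2 classes are known to be switched on through different short motifs. Ccnb2 and Rrm2 had the largest changes of their classes between the day 12 node and naive cells. Mcm5 and Cdk1 had neither the largest nor the smallest of theirs. The counts after the sequences cover all members with a promoter. RefSeq gave promoters, from 250 bases before to 50 bases after the start, for 34 of the 43 genes, in the GRCm38.p6 build. Capitals mark matches on either strand to 3 kinds of letters. Those of E2F sites were TTCCCGC and, as the other form, TTGGCGC. Those of the cell cycle homology region of mitosis genes were TTTGAA and, as the other form, TTCGAA. Those of the CCAAT box were the letters of its name, which can share bases with the reverse of the second E2F form. The promoters are those of Mcm5 at chr8:75109259-75109558 on the plus strand, Rrm2 at chr12:24708004-24708303 on the plus strand, Ccnb2 at chr9:70421505-70421804 on the minus strand and Cdk1 at chr10:69352863-69353162 on the minus strand.
Mcm5: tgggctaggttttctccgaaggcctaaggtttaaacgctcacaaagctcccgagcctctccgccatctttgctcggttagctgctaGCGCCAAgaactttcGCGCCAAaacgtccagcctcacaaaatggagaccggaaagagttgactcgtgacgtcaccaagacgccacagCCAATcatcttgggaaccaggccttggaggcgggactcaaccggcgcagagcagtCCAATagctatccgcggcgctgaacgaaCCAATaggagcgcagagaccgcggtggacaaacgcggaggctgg
Rrm2: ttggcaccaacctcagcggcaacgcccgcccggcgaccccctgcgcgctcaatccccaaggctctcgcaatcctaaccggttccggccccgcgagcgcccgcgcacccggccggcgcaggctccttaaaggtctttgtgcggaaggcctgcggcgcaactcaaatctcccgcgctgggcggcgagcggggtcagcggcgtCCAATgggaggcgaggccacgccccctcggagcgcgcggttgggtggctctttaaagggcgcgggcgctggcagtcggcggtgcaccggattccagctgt
Ccnb2: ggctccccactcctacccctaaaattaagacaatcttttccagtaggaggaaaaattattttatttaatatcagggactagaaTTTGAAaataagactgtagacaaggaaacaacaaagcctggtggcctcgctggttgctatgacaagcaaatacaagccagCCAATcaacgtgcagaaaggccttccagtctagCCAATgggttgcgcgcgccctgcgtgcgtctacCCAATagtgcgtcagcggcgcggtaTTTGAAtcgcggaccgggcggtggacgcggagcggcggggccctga
Cdk1: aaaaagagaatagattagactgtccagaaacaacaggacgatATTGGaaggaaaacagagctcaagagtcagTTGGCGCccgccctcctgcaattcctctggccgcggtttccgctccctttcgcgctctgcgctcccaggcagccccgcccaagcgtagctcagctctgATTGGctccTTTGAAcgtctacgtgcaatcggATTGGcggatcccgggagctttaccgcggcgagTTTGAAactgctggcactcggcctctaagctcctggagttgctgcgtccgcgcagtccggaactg
Mcm5 held the E2F letters at 164 and 149 bases before the start, Ccnb2 held the homology region letters but no E2F letters, Cdk1 held both, and Rrm2 held, of these, a CCAAT box alone. Across the genes with a promoter, E2F letters stood in 6 of 12 S phase promoters and 3 of 21 mitosis promoters (14.3%), beside 6.81% of 32851 mouse promoters of this length. The homology region letters stood in 3 of 12 S phase promoters (25.0%) and 17 of 21 mitosis promoters (81.0%), beside 19.2% of all. CCAAT stood in 9 of 12 (75.0%) and 18 of 21 (85.7%), beside 37.4% of all. A match of letters is a description and no measure of binding.

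The comparison of tumor with naive cells asks how much of this program cells inside the tumor carry. In tumor 39 of the 43 genes rose, where 7.32% of all tested genes were called higher, and all 26 mitosis genes were among them. The median change was 3.58 log2 for mitosis genes and 2.09 for S phase genes, beside -0.06 over all tested genes. Every tumor library lay above every naive library for 43 of 43 genes, which held for 17.9% of tested genes. The comparisons with naive cells share the same 4 naive libraries, so their values are not independent of one another.

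Ccnb2 had 144, 104, 105 and 96.7 TPM in tumor, a change from naive cells of 5.59 (SE 0.73, limma adjusted p = 2.05e-06). Birc5 had 257, 174, 169 and 154 TPM and Ube2c had 228, 136, 145 and 124 TPM in tumor, with changes of 5.41 and 5.52. Mki67 had 9.76, 8.46, 8.73 and 6.52 TPM in tumor, a change of 2.74 (SE 0.44, limma adjusted p = 3.71e-05). Replicate 1 was the highest tumor library in 38 of 43 genes and replicate 4, with 48.1% of the median T cell identity sum, the lowest in 33.

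The 4 genes not called were Mcm2, with 79.6, 62.9, 72.2 and 62.2 TPM in tumor and a difference of 1.37 (interval 0.21 to 2.53), Mcm4 at 0.76 (-0.56 to 2.09), Mcm7 at 0.72 (-0.32 to 1.76) and Pcna at 0.65 (-0.18 to 1.48). Mcm5, with 89.8, 68.1, 73.1 and 69.0 TPM in tumor, rose by 1.90 (SE 0.53, limma adjusted p = 0.0124), and Mcm3 and Mcm6, subunits of the same helicase, rose too. Tk1 at 4.67, Rrm2 at 4.65 and Gins2, a subunit of the replicative helicase's GINS complex, at 3.61 had the largest changes of the S phase class. Markers of other cells were present in tumor. All 7 genes of a melanocyte and melanoma list were above 0 in each tumor library and summed to 362 to 849 TPM, against 9.75 to 15.2 TPM in naive cells. The 8 keratinocyte genes summed to 234 to 1715 TPM in tumor and 5.87 to 9.89 TPM in naive cells. Erythroid genes summed to 3609 to 12467 TPM in tumor and 338 to 942 TPM in naive cells. The part of such cells in these values was not tested.

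Set against the day 12 node, tumor libraries lay lower for all 43 genes, with no overlap between the libraries, which held for 22.2% of all tested genes in that direction. The fit over all groups called 8 of them lower, where 2.42% of tested genes were called lower. Those 8 were Hmgb2 at -1.87, Mki67 at -2.10 (SE 0.44, limma adjusted p = 0.00258), Cenpe, a kinetochore motor, at -1.94, Tpx2, a spindle assembly factor, at -1.82, Tyms, the thymidylate synthase, at -1.77, Cdca8, or borealin, at -1.66, Top2a at -1.54 and Pcna at -1.54. Ccna2, the cyclin A of dividing cells, had the largest difference, -2.21, with an adjusted p of 0.0594. Fitted with these 2 groups alone, whose spread was among the smallest, the same test called 43 of 43 lower, beside 21.5% of all tested genes, and without tumor replicate 4 the fit over all groups called 4. Group medians in tumor were 29.8% of the day 12 medians at the median of the mitosis genes, from 20.5% for Ccna2 to 49.1% for Cenpa, and 34.7% at the median of the S phase genes, from 25.5% for Rrm2 to 52.1% for Mcm2.

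The comparisons of lymph node memory cells ask what remains of the program after the response. Against the day 12 node 42 of 43 genes fell, where 2.99% of tested genes were called lower, and the libraries did not overlap for any of the 43, as for 11.2% of tested genes. The median change was -3.36 log2 for mitosis genes and -2.67 for S phase genes, beside 0.26 over all tested genes. Ccnb2, with 55.5, 16.6, 16.8 and 19.0 TPM in lymph node memory cells, changed by -4.04 (SE 0.73, limma adjusted p = 0.000532), Ccna2 by -4.01 and Birc5 by -3.83. The smallest differences were those of helicase genes and the clamp, with Mcm2 at -1.87 and Mcm4, the gene not called, at -1.95 (interval -3.28 to -0.63). The median mitosis gene kept 7.48% of its day 12 level and the median MCM gene 19.7%.

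Against naive cells 18 genes were higher in lymph node memory cells, where 4.61% of tested genes were called higher. These were 13 of 26 mitosis genes, Rrm2, Tk1 and Tyms of the S phase class, Stmn1 and Hmgb2. Birc5 had 97.9, 27.1, 42.7 and 34.6 TPM in lymph node memory cells, a change of 3.38 (SE 0.59, limma adjusted p = 0.000242). Rrm2 had 164, 38.3, 61.3 and 31.4 TPM there, a change of 3.11 (SE 0.64, limma adjusted p = 0.00162). Mki67 had 9.2, 5.42, 5.74 and 4.94 TPM there, a change of 2.37 (SE 0.44, limma adjusted p = 0.000472). All 3 genes were above the naive range in each of the 4 libraries.

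None of the 6 MCM genes was called, and Mcm5, with 47.2, 25.2, 23.2 and 28.0 TPM, differed from naive cells by 0.60 (interval -0.47 to 1.68). Pcna had 176, 131, 146 and 108 TPM, overlapping the naive range, with a difference of 0.22 (-0.61 to 1.04). Ccnb1 had 34.7, 7.48, 11 and 16.7 TPM and was above the naive range in all 4 libraries, with a difference of 2.58 (0.83 to 4.32) that was not called. Replicate 1 was the highest library of the group for 43 of 43 genes, and its mitosis genes summed to 791.5 TPM, against 245.5 to 334.3 in the others. That library had the lowest B cell sum of its group and the highest NK cell sum. The 8 B cell genes, all above 0 in each library, summed to 149 TPM there and to 225 to 1546 TPM in the other lymph node memory libraries, against 31.3 to 41.7 TPM in naive cells. The 6 genes of an NK cell list summed to 1390 TPM in replicate 1 and to 142 to 491 TPM in the other lymph node memory libraries. The part of other cells in these values was not tested. Without replicate 1 11 genes were called. Fitted with the 2 groups alone 32 were called higher, beside 12.9% of all tested genes, and every lymph node memory library lay above every naive library for 37 of 43 genes, as for 16% of tested genes.

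In spleen 15 genes were higher than in naive cells, which came from the same organ, where 3.62% of tested genes were called higher. These were 10 mitosis genes, Rrm2, Tk1 and Tyms, Stmn1 and Hmgb2. Birc5 had 79.2, 29.0, 26.9 and 48.9 TPM in spleen, a change of 3.29 (SE 0.59, limma adjusted p = 0.000464), Rrm2 had 26.2, 110.5, 38.5 and 52.5 TPM, a change of 2.86, and Nusap1, a spindle protein, changed by 2.88. Mki67 had 3.59, 11.5, 3.94 and 3.92 TPM, with replicate 2 apart from the others. Without naive replicate 1 or naive replicate 2 the count was 9.

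Ccnb1 had 2.62, 0.09, 0.46 and 35.5 TPM in spleen, with replicate 4 above the naive range and replicates 2 and 3 below it, and the difference was 0.51 (interval -1.23 to 2.26). Cdc20 had 5.84, 21.1, 3.46 and 28.2 TPM, again on both sides of the naive range. Replicate 4 was the highest spleen library in 26 of 43 genes. Its 8 B cell genes summed to 2595 TPM, against 463 to 792 TPM in the other spleen libraries. In naive cells they summed to 31.3 to 41.7 TPM, and all 8 were above 0 in every spleen and naive library. Germinal centre and plasma cell genes summed to 1178 TPM in replicate 4, against 85.7 to 737 TPM in the other spleen libraries. Myeloid genes summed to 7550 TPM in replicate 4, against 634 to 1039 TPM in the other spleen libraries. Its erythroid precursor sum, 69.4 TPM, was the highest of the group too. Neither the part of B cells nor that of the other cell types was tested. None of the MCM genes was called in spleen, and all 4 spleen libraries had less Mcm7 than any naive library, as for 11.4% of tested genes, at a difference of -0.84 (-1.88 to 0.20).

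In lung 15 genes were higher than in naive cells, where 4.86% of tested genes were called higher, among them 10 mitosis genes and, again, Rrm2, Tk1 and Tyms. Rrm2 had 155, 36.8, 56.2 and 33.1 TPM in lung, a change of 3.07 (SE 0.64, limma adjusted p = 0.00166). Cdk1 had 54.9, 41.46, 10.6 and 36.0 TPM, a change of 2.98 (SE 0.48, limma adjusted p = 7.29e-05), and Ube2c had 50.8, 7.19, 58.7 and 17.7 TPM, a change of 2.95. Each lung library was above the naive range for these 3 genes. Ccnb1 had 19.9, 2.25, 14.4 and 5.88 TPM, a difference of 1.79 (interval 0.04 to 3.53), and Mcm5 had 53.0, 41.1, 11.8 and 43.9 TPM, a difference of 0.74 (-0.33 to 1.82), and neither was called. Replicate 1 was the highest lung library in 39 of 43 genes, with a mitosis sum of 661.2 TPM against 226.0 to 261.0 in the others. The 10 myeloid genes were all above 0 in each lung library and summed to 1486 to 9759 TPM, against 93.4 to 117 TPM in naive cells, and their part was not tested.

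The comparisons of skin ask how the Pmel cells taken from skin differ from those of other groups. Against naive cells 19 genes were higher in skin, where 8.97% of tested genes were called higher: 13 mitosis genes, 5 S phase genes and Stmn1. Ccnb2 had 44.0, 18.1, 29.2 and 22.6 TPM in skin, a change of 3.58 (SE 0.73, limma adjusted p = 0.000667), and Ube2c had 58.5, 31.99, 45.6 and 21.8 TPM, a change of 3.49. Besides Rrm2, Tk1 and Tyms, the S phase genes called were Gins2 at 1.79 and Ccne2. Ccne2 had 18.3, 24.0, 23.7 and 3.48 TPM in skin, high in replicates 1 to 3 and lower in replicate 4, and its change from naive cells was 2.55 (SE 0.71, limma adjusted p = 0.0101).

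Pcna had 231, 234, 218 and 74.8 TPM in skin, with 3 libraries above and replicate 4 below all naive libraries, and a difference of 0.53 (interval -0.29 to 1.36). The MCM genes did not follow: Mcm5 had 21.0, 15.8, 15.1 and 7.31 TPM in skin, a difference of -0.44 (-1.52 to 0.64). All 4 skin libraries lay below every naive library for Mcm4, at -1.02 (-2.34 to 0.31), and Mcm7, at -1.11 (-2.15 to -0.07), where 24.1% of tested genes did so, and neither was called. Plk1 had 3.52, 4.44, 2.22 and 3.72 TPM in skin, above the naive range but low beside Ccnb2, and its difference from naive cells was 1.05 (-0.14 to 2.24). Hmgb2 had 226, 202, 179 and 86.6 TPM, a difference of 0.97 with an adjusted p of 0.0658, while Stmn1 had 614, 305, 361 and 206 TPM and rose by 3.13 (SE 0.51, limma adjusted p = 4.51e-05). Replicate 4, with 26.1% of the median T cell identity sum, was the lowest skin library in 33 of 43 genes. The 8 keratinocyte genes summed to 385 to 5055 TPM in skin and 5.87 to 9.89 TPM in naive cells, with 7 of them above 0 in every skin library. The part of other cells in these values was not tested.

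Against lymph node memory cells limma called none of the 43 genes in skin, where 7.48% of tested genes were called in either direction. At an unadjusted p under 0.05, 1 of the 43 passed, Plk1 on the lower side, as did 4218 of the 19738 tested genes. The extremes were Stmn1 at 0.91 (interval -0.14 to 1.96) and Ccne2 at 0.88 (-0.56 to 2.32) on the higher side, and Plk1 at -1.31 (-2.50 to -0.12) and Mcm4 at -1.12 (-2.44 to 0.21) on the lower side. All 4 skin libraries lay below every lymph node memory library for Mcm4, Mcm5, Mcm7 and Plk1, as for 17.2% of tested genes. With array weights Ccne2, Pcna and Stmn1 were called, and without the 5 low-identity libraries Pcna was.

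Against tumor 18 genes fell in skin, where 3.54% of tested genes were called lower. None was higher in skin, with limma at an adjusted or an unadjusted p under 0.05. Plk1 had 3.52, 4.44, 2.22 and 3.72 TPM in skin and 48.8, 37.2, 42.6 and 31.9 TPM in tumor, a change of -3.21 (SE 0.58, limma adjusted p = 0.000452), the largest of the 43. Aurkb and Aurka, the Aurora kinases of chromosome segregation and of the spindle poles, changed by -2.70 and -2.58, and Cenpa by -2.42 (SE 0.41, limma adjusted p = 0.0002). In the S phase class Mcm3 changed by -2.42 and Mcm5 by -2.34, whereas Pcna differed by -0.12 (interval -0.95 to 0.71) and Ccne2 by -0.37 (-1.81 to 1.07), neither of them called. Skin libraries lay below all tumor libraries for 36 genes, as for 9% of tested genes, and overlapped for Mki67, Ccne2, Nusap1, Cenpf, Pcna, Foxm1 and Stmn1. Without tumor replicate 1, or without skin replicate 4, 10 genes were called, and with the 2 groups alone 33 were, beside 6.72% of all tested genes in either direction.

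In liver 19 genes were higher and 3 lower than in naive cells, where 7.23% of tested genes were called higher and 29.8% lower. The 19 were 14 mitosis genes, Rrm2, Tk1 and Tyms, Stmn1 and Hmgb2, and the 3 were Mcm4, Mcm5 and Mcm7. With the 2 groups alone none of those 3 was called and 10 genes were called higher, beside 9.84% of tested genes lower and 2.74% higher. Without liver replicate 2 neither Mcm4 nor Mcm5 was called, and Mcm5 was not called without liver replicate 3 or 4 or any 1 naive library either. Birc5 had 219, 129, 22.2 and 68.4 TPM in liver, a change of 4.23 (SE 0.59, limma adjusted p = 5.57e-06). Rrm2 had 228, 47.7, 6.91 and 56.5 TPM, with replicate 3 inside the naive range, a change of 2.77 (SE 0.64, limma adjusted p = 0.00153). Ccnb1 had 45.6, 0, 4.05 and 8.05 TPM and Cdc20 had 50.7, 0, 5.61 and 13.4 TPM, both listed at 0 in replicate 2 and both not called.

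Mcm5 had 36.8, 1.42, 3.49 and 8.59 TPM in liver, a change of -1.35 (SE 0.53, limma adjusted p = 0.0446), and Mcm4 and Mcm7 changed by -2.24 (SE 0.65) and -1.82 (SE 0.51). These changes stand beside a shift of -0.55 log2 in the median of all tested genes, which quantile normalization moved to -0.15. Under that scaling 2374 genes were called higher and 3531 lower, against 1428 and 5888 in the fit as reported, and 2 MCM genes were called lower. Liver replicates 2, 3 and 4 held 32.9%, 36.2% and 23.5% of the median T cell identity sum. The 8 hepatocyte genes, all above 0 in each liver library, summed to 784 to 29874 TPM in liver, against 0.67 to 3.94 TPM in naive cells. Erythroid genes summed to 557 to 91052 TPM in liver, against 338 to 942 TPM in naive cells. Myeloid genes summed to 1588 to 13535 TPM in liver, against 93.4 to 117 TPM in naive cells. The part of such cells in these values was not tested. With the 5 libraries low in T cell markers left out, replicate 1 alone stood for liver, its spread taken to be that of the other groups. There Mcm4 differed by 0.0899 and Mcm5 by 0.91, neither called, and the sign of both was then the other way. Pcna had 283, 32.4, 101 and 120.1 TPM, and it differed by -0.20 (interval -1.03 to 0.63) with all libraries and rose by 1.25 (limma adjusted p = 0.00525) without those.

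**Figure D3:**
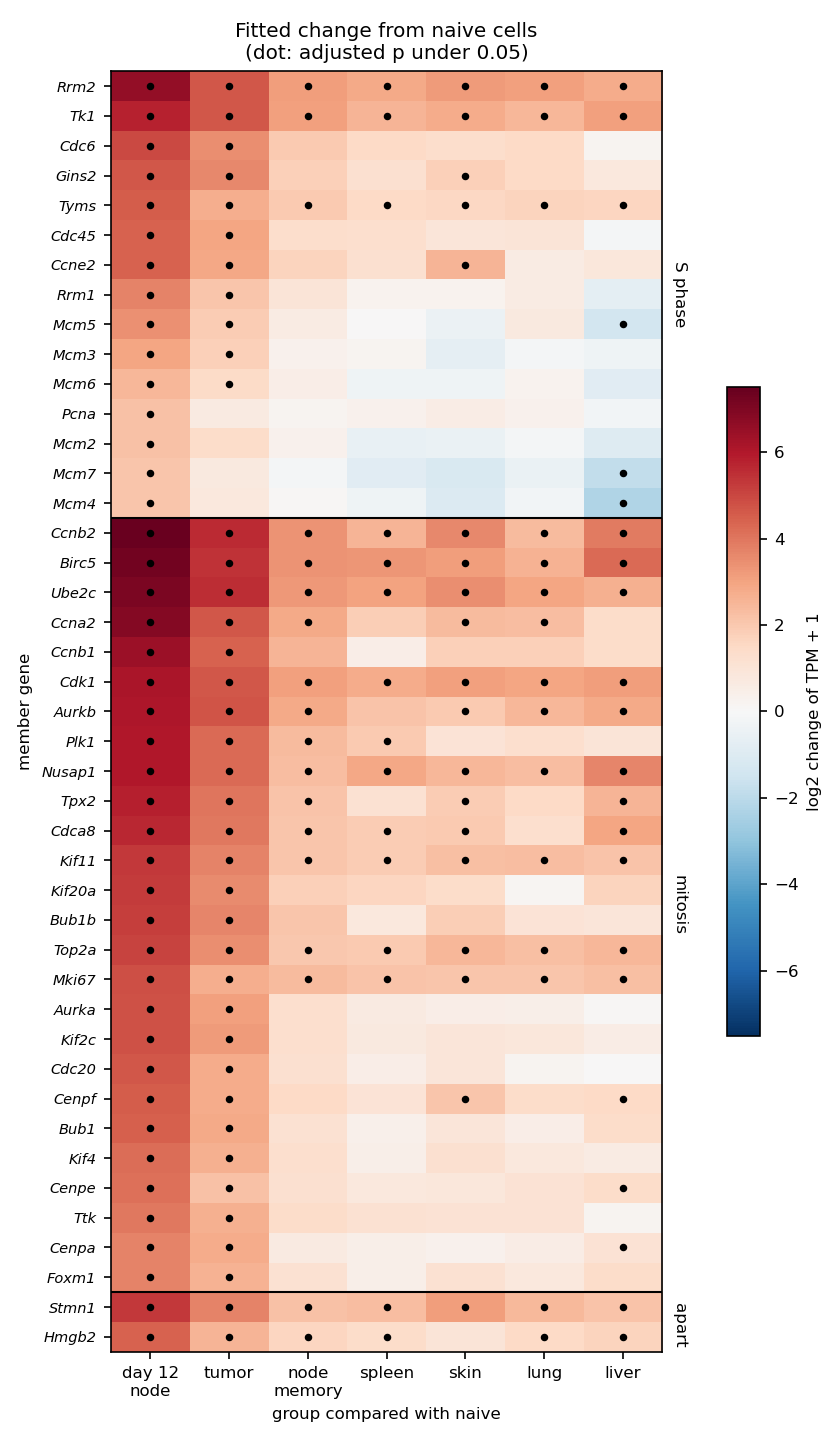
Change of each of the 43 genes from naive cells, as a difference of log2(TPM + 1), in the 7 other groups, with a dot where the adjusted p was under 0.05. The day 12 column carries 43 dots and the tumor column 39, and Rrm2, Tk1 and Tyms are the S phase genes with a dot in every column.

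Across the 5 groups of lymph node memory, spleen, skin, lung and liver, the heat map of changes from naive cells shows a repeated split within the S phase class. Rrm2, Tk1 and Tyms, which serve nucleotide supply as Rrm1 does, were called higher than naive in each of the 5, and no MCM gene was called higher in any. Rrm1, the partner subunit of Rrm2, was called in none of the 5, with differences of 0.98 in lymph node memory cells, 0.26 in spleen, 0.29 in skin, 0.64 in lung and -0.71 in liver. With the 2 groups alone Rrm2 and Tyms were not called in liver, and Tyms was lost in spleen without any 1 of 5 libraries, spleen replicates 1 and 2 and naive replicates 1, 2 and 4. With array weights Mcm5 and Mcm6 were called higher in lymph node memory cells and Mcm5 in lung. The median change of the 6 MCM genes was 0.31 log2 in lymph node memory cells, -0.32 in spleen, -0.57 in skin, -0.14 in lung and -1.17 in liver. The S phase genes other than the MCM genes had medians of 1.76, 1.28, 1.54, 1.49 and 0.81 in the same order. Quantile normalization gave MCM medians of 0.23, -0.19, -0.28, -0.12 and -0.53, and without the 5 low-identity libraries the liver median was 0.40. The 5 comparisons share the naive libraries, and the difference between MCM and other S phase genes was not tested.

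**Figure D4:**
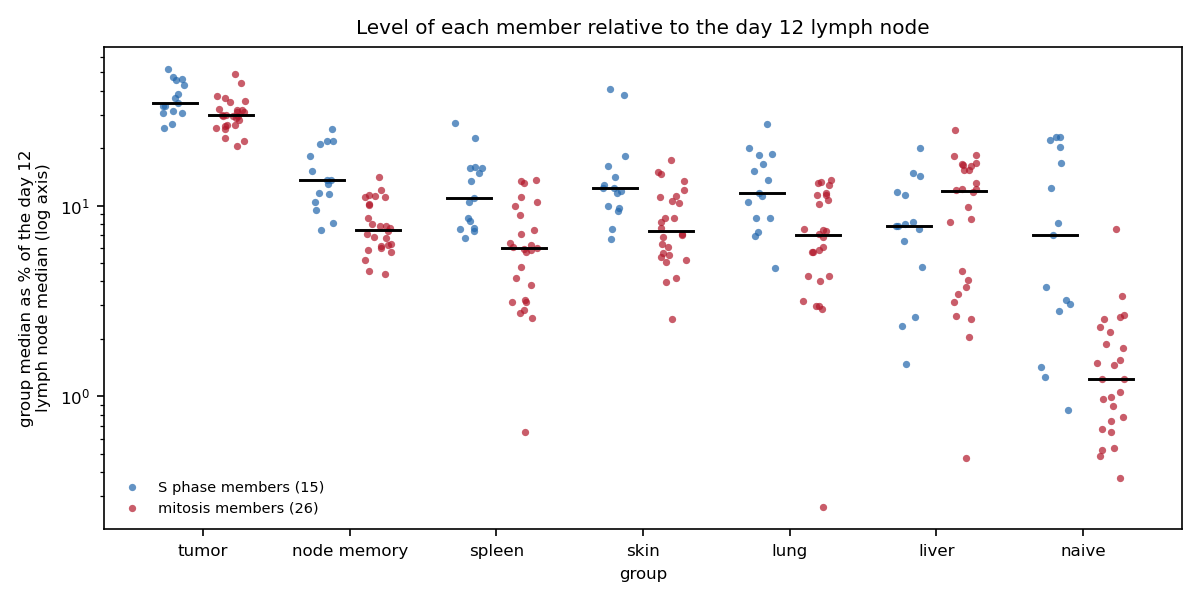
Group median of each gene as a percentage of its day 12 median, on a log axis, for the S phase genes (blue) and mitosis genes (red) in the other 7 groups, with a black line at the class median. The mitosis genes sit at a class median of 29.8% in tumor and 1.23% in naive cells, and the S phase genes at 34.7% and 6.97%.

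Relative to the day 12 node, as the plot of percentages shows, the median mitosis gene stood at 7.48% in lymph node memory cells, 5.97% in spleen, 7.37% in skin, 6.97% in lung, 11.9% in liver and 1.23% in naive cells. The median S phase gene stood at 13.6%, 11%, 12.3%, 11.7%, 7.80% and 6.97% in the same groups. In skin the range of the 15 S phase genes ran to 41.0% for Pcna and 38.1% for Ccne2, and the lowest mitosis gene was Plk1 at 2.54%. Naive cells had the lowest median of all 8 groups for 22 of 26 mitosis genes and for 6 of 15 S phase genes, and liver had the lowest for 8 of 15 S phase genes.

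Other genes of the cycle were taken from lists of 40 S phase and 44 mitosis genes. In the day 12 node 32 of 40 and 40 of 44 were higher than in naive cells, beside 5.95% of all tested genes. None was lower, and Cdkn3, a phosphatase that acts on CDKs, was at 5.94 in the mitosis list. In tumor 18 and 35 were higher, beside 7.32% of all tested genes, with Cdkn3 at 4.45. In lymph node memory cells 2 and 10 were higher, in spleen 2 and 8, in skin 3 and 12, in lung 4 and 9, and in liver 2 and 13. In these 5 groups at most 4 of the 40 S phase genes were called higher, where 3.62% to 8.97% of all tested genes were. In liver 8 S phase and 3 mitosis genes were lower, beside 29.8% of all tested genes, and 1 of each list was lower in skin, beside 10.5%. Of the mitosis list 1 gene was lower in tumor (8.02% of all tested genes), 1 in lymph node memory cells (1.9%), 1 in spleen (2.46%) and 2 in lung (4.53%). Smc4, a condensin subunit, went the other way and fell by 2.14 in spleen, 2.56 in skin and 2.43 in lung. Against the day 12 node 24 of 40 and 42 of 44 were lower in lymph node memory cells, beside 2.99% of all tested genes. In tumor 8 and 10 were lower than in the day 12 node, beside 2.42%. Skin against lymph node memory cells gave no call in either list with limma. At an unadjusted limma p under 0.05, 2 of 40 and 3 of 44 genes passed there. Skin against tumor gave 15 lower in each list, beside 3.54% of all tested genes.

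Among 12 regulators of G1, the phase before S phase, 3 were higher in the day 12 node than in naive cells. The share of all tested genes called higher there was 5.95%. The 3 were E2f2, an E2F factor, at 3.69, Cdk2, the partner of cyclin E, at 2.01, and Skp2, which marks the inhibitor p27 for destruction, at 1.57. Ccnd2, a cyclin D, was the one gene of this list higher in lymph node memory cells than in naive cells, at 1.33, and it was higher than in the day 12 node by 2.26. Ccnd1, another cyclin D, was higher than in naive cells by 1.64 in tumor, 1.5 in skin and 1.49 in liver. Its levels were low, at 0.16 to 0.31 TPM in naive cells, 2.21 to 3.55 in tumor and 2.12 to 3.42 in skin. In liver it had 1.04, 0.43, 6.39 and 5.47 TPM, and replicates 2, 3 and 4 were low in T cell identity. The part of other cells in these values was not tested. E2f2 was also higher than in naive cells in spleen and, by 2.58, in lung. Of the same list, Cdk6 rose by 1.97 in tumor and 1.85 in lung, and Ccnd3 by 1.48 in lung. Others were lower than in naive cells, namely Rb1 in tumor, at -1.75, and Myc in lung. In liver 4 of the 12 were lower, beside 29.8% of all tested genes. These were Myc at -3.29, Rb1 at -2.55, Cdc25a at -1.88 and Cdk4 at -0.99.

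Among 12 inhibitors of the cycle, Cdkn1a, which encodes the CDK inhibitor p21, was higher than in naive cells in all 7 groups. It had 15.4, 12.1, 17.2 and 13.9 TPM in the day 12 node, 83.7, 55.3, 56.2 and 63.2 in tumor, 11.2, 12.4, 71.9 and 14.1 in Mem_LN cells, 21.4, 18.3, 10.8 and 9.5 in spleen, 1049, 729.99, 827 and 325 in skin, 77.0, 67.1, 70.7 and 65.3 in lung, 340.5, 73.4, 202 and 136 in liver and 0.46, 0.36, 0.15 and 0.37 in naive cells. Every skin library was above all libraries of the day 12 node, tumor, lymph node memory cells, spleen, lung and naive cells, and liver replicate 1 overlapped skin. The change from naive cells was 8.99 in skin (limma adjusted p = 3.65e-14) and 3.55 in the day 12 node (limma adjusted p = 1.36e-06). Set against lymph node memory cells, skin was higher in Cdkn1a by 5.03, in Tob1 by 2.64 and in Btg2 by 1.42, both of the BTG/TOB family of antiproliferative genes. Btg1, of that family too, fell by 2.75 in the day 12 node against naive cells. Against naive cells Btg2 and Tob1 rose by 2.27 and 2.58 in skin and by 2.13 and 1.22 in liver, while neither was called in lung. Cdkn2d, another inhibitor of the list, fell by 1.5 in skin and 1.48 in tumor. Skin, lung and liver were taken apart by enzymes and lymph nodes by mechanical force, and the part of this was not tested.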

How the data were processed

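RNA sequencing data of 32 libraries in 8 groups of 4 were used. The alignment was made with Bowtie to mm10, per the submitters' processing notes, while its version, the annotation and the counting were not given in the sources used here. What the authors deposited were natural log values of TPM + 1, as settled from the values: converted back, each value is a multiple of 0.01 TPM within 0.0001, and each library sums to 999999.06 to 1000000.8 TPM. No read counts were used, so depth is unknown. Tissues were taken apart by different routes, per the labels' protocols: by mechanical force for lymph nodes and by enzymes for skin, lung and liver, the last 2 with a Percoll step.

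Values were converted to log2(TPM + 1). All 8 groups entered 1 limma 3.58.1 fit (R 4.3.3) with a variance trend and 24 residual degrees of freedom. Of 42409 detected genes, the 19738 that reached 1 TPM in 4 libraries entered the test, with Benjamini-Hochberg adjustment within each of 11 comparisons. The fit was tested on simulated data. Python 3.11.15 served for summaries. The 43 genes, the other lists and the tests were chosen with earlier results of these data known. Genes with values per library were 16 set in the design, with the 3 largest and 3 smallest changes of a class and Cdkn1a, chosen after its values were seen. Of other cycle lists, some of the called genes were named, and these were not always the ones with the largest changes. Marker lists were summed in TPM. Alternatives were no filter, a filter of 5 TPM, a pseudocount of 0.1, the 2 groups alone, array weights, weights per group, a replicate block, quantile normalization, rescaling without mitochondrial and marker genes, leaving out 5 libraries of low T cell identity, and leaving out each library.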

Additional observations from a re-analysis of the deposited data

Results flagged for a closer look

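Of 144 sets of 4 libraries examined, for 16 genes and 2 class means in 8 groups, 8 had 1 library apart from the others by Dixon's criterion, where chance alone gives about 1 in 20. In day 12 replicate 4 the S phase mean was 7.284 log2, against 7.556 to 7.609 in the other day 12 libraries, and Mcm5 was at 178.64 TPM, against 231.51 to 234.63 TPM. In skin replicate 4 the S phase mean was 3.408 log2, against 4.776 to 4.896 in the other skin libraries, with Pcna at 74.76 TPM, against 218.31 to 233.55 TPM, and Ccne2 at 3.48 TPM, against 18.32 to 24.02 TPM. That library had a T cell identity sum of 26.1% of the median, and its part in these values was not tested. In spleen replicate 2 Mki67 was at 11.47 TPM, against 3.59 to 3.94 TPM in the other spleen libraries. Naive replicate 1 had Ccne2 at 1.83 TPM, against 1.52 to 1.56 TPM, and naive replicate 3 had Cdc20 at 7.78 TPM, against 7.04 to 7.14 TPM, both small in size.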

How the results depend on the processing

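Counts of the 43 genes called moved by over 1.5 times in these cases. Beside each stands the share of all tested genes called under the same setting, which mostly moved the same way. For lymph node memory against naive cells, 18 higher became 32 with the 2 groups alone (12.9%), 38 with array weights (21.2%) and 36 with weights per group (14.9%), from 4.61%. With array weights skin against naive cells gave 34 higher (18.5%) in place of 19 (8.97%), and lung 28 (10.5%) in place of 15 (4.86%), while liver with the 2 groups alone gave 10 (2.74%) in place of 19 (7.23%). For tumor against the day 12 node, 8 called in either direction (6.97%) became 5 with a pseudocount of 0.1 (5.84%), 43 with the 2 groups alone (41.4%), array weights (54.4%) or weights per group (45.3%), 20 without libraries low in T cell identity (10.5%) and 18 with a replicate block (7.35%). For skin against tumor, 18 (7.34%) became 33 with the 2 groups alone (6.72%), 38 with array weights (25.2%), 33 with weights per group (11.3%) and 31 with quantile normalization (11.6%). For skin against lymph node memory cells, 0 (7.48%) became 3 with array weights (22.5%) and 1 without libraries low in T cell identity (11.6%). The cause was not tested. Leaving out each library in turn gave 42 to 42 genes for the day 12 node against naive cells (Mcm4 was lost), 38 to 39 for tumor, 11 to 18 for lymph node memory cells, 9 to 14 for spleen, 16 to 20 for skin, 10 to 16 for lung and 15 to 22 for liver. It gave 4 to 7 for tumor against the day 12 node, 41 to 42 for lymph node memory cells against it, 0 to 0 for skin against lymph node memory cells and 10 to 17 for skin against tumor. Sign changes were counted only for genes called in the main fit or in the alternative. Of these, 3 reversed, all in liver against naive cells without libraries of low T cell identity. They were Mcm4 at 0.0899, Mcm5 at 0.91 and Pcna at 1.25. Sign changes of genes called in neither fit were not counted. Whether the shared replicate numbers pair the samples could not be settled. Correlations of same-numbered deviations ran from -0.374 to 0.467, and in no comparison were all 4 over 0.1. Most comparisons were with naive or day 12 cells. Of the tissues sampled 45 days after surgery, only skin and lymph node memory were set against each other. There replicate 4 gave 0.467, beside at most -0.027 with other numbers, and 2 of 4 libraries matched their own number best. The replicate block turned no call off and 21 on. Depth is unknown, so limits on genes near 0 cannot be given.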
